A study of Mus musculus with 8 samples.

Results

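The genes Pdgfrb, Rgs5, Vtn, Notch3, Des, Acta2, Myh11 and Tagln, which serve as markers of the mural cells of blood vessels, were described in the medial prefrontal cortex (mPFC) of mice exposed to maternal separation (MS) and of control mice. These 8 genes were found by their symbols among the 34797 gene names of the arrays, and each was read by 1 of 55681 probes of 60 bases. The first 5 (Pdgfrb, Rgs5, Vtn, Notch3 and Des) are called pericyte genes here and the other 3 (Acta2, Myh11 and Tagln) smooth muscle genes. RNA was taken from the whole dissected mPFC of 8 adult males of the inbred strain C3H/HeN, and each animal had its own single-colour array. The 4 MS mice were separated from the dam in a daily session from postnatal day 2 to postnatal day 14. During the sessions the dam was exposed to unpredictable stress. The 4 control mice stayed undisturbed with their dams. All mice were weaned at postnatal day 21, worked for palatable food in operant chambers as adults and were killed after food deprivation. Animals are named by their group and the number of their label, so that MS 7.1 is the MS mouse numbered 7.1. The comparison asks whether MS left a difference in the expression of these vascular genes in the adult mPFC.

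Pericytes are embedded in the basement membrane of capillaries, where they support the blood-brain barrier, whereas smooth muscle cells form rings around arterioles and set their diameter. Endothelial cells recruit both by secreting PDGF-B, which binds the receptor encoded by Pdgfrb, and instruct them through the Notch ligand Jagged1, which binds Notch3. Contractile genes of smooth muscle, among them Acta2, Myh11 and Tagln, are switched on by serum response factor (SRF) and its partner myocardin, and SRF binds a motif called the CArG box. In whole tissue, fewer cells of a type and less RNA per cell cannot be told apart.

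Sequences are shown for genes whose patterns between animals are set against each other below. RefSeq promoters of build GRCm38.p6 were at hand for 5 of the 8 genes (Des, Rgs5, Vtn, Notch3 and Acta2), and the 250 bases before the transcription start were searched on both strands. A CArG box with at most 1 C or G among its central letters was found in 8.59% of 32851 promoters of this length and the box without such a letter in 1.47%, while TGGGAA, the core letters bound by the Notch partner RBPJ, was found in 21.6%. The promoter of Acta2 (chr19:34255374-34255623, minus strand) held the relaxed CArG box in 2 places, at 84 to 75 and at 34 to 25 bases before the start. Its TGGGAA, at 27 to 22 bases before the start, overlapped the CArG box nearer to the start. The promoter of Vtn (chr11:78498870-78499119, plus strand) held TGGGAA alone, and those of Des, Rgs5 and Notch3 held none of these motifs in this window. Other contractile genes were searched too, and the promoters of Cnn1 and Tpm2 held none of these motifs. That of Myl9 held the CArG box without such a letter at 161 to 152 bases before the start and a relaxed one at 99 to 90. Capitals mark the matches, which are matches of letters only.
Acta2 promoter: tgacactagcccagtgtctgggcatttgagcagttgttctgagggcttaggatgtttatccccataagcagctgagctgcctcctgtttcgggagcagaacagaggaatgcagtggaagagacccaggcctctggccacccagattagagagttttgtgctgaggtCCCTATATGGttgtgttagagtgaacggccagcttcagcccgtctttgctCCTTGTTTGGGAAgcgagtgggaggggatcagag
Vtn promoter: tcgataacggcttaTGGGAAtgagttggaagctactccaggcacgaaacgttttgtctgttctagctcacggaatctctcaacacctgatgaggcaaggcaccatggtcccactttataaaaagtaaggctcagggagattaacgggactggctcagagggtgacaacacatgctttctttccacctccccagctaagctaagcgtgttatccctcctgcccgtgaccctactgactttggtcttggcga
The probes of Vtn (chr11:78315393-78315665, plus strand, build mm9 of the array files) and Myh11 (chr16:14202190-14202249, minus strand, mm9) are given because the patterns of both genes between animals are described below, and the 60 bases of the Vtn probe span 273 bases of the genome and so cross an intron.
Vtn probe: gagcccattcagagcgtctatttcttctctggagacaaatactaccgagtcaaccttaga
Myh11 probe: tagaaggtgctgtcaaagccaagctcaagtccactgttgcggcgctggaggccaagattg

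The 75th percentile of the processed signal ran from 588 in MS 7.1 to 892 in control 8.4, between 61.5% and 68.9% of probes were well above background on each array, and no spot was saturated. Levels are log2 values set relative to this percentile of their array, so that a level of 0 equals it and a step of 1 is a change of 2-fold. Levels of different probes are not compared. All 8 markers of neurons were tested, and this list does not tell cortex from olfactory bulb or striatum. Their summed signal, relative to the 75th percentile, was 334 to 362 in MS mice, against 313 to 351 in controls. The 8 tested of 9 olfactory bulb markers stood, as the mean of levels after subtraction of each gene's mean over the 8 animals (called the mean centred level), at 1.03 in MS 7.6, at 2.19 in control 8.4, and at 0.62 in control 8.5. The other 5 mice lay between -0.86 and -0.67. The 10 tested striatal projection neuron markers were at 1.30 in control 8.4, and the remaining 7 mice lay between -0.32 and -0.054. The part of this tissue difference in the results was not tested, and the fold changes of all 8 genes without these 3 animals are given with the processing alternatives. The few arrays per group limit the precision. The labels do not say whether mice of a group came from separate litters, and p values then measure the spread between these mice only.

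For none of the 8 genes did a difference between MS and control mice pass the test. By limma with Benjamini-Hochberg adjustment, 0 of 34095 tested probes passed an adjusted p of 0.05 (0.0% called), and the 8 genes had adjusted p values of 0.99956 or above. At an unadjusted p of 0.05 the share called over all probes was 2.39%, and 0 of the 8 genes was among them. Pdgfrb passed this unadjusted threshold, as 1 of the 8 genes, without control 8.5 (2.37% of probes called) and without the 3 animals with raised olfactory bulb markers (2.27% called). The groups did not overlap for 1.43% of all probes and overlapped for each of the 8 genes. Exact two-sided permutation p values, unadjusted over the 8 genes tested, ran between 0.086 and 0.94, against 0.029 as the smallest that 70 labellings can give. Fold changes were below 0 for 6 genes and above 0 for 2, and below 0 for 45.1% of all tested probes. The median log2 fold change was -0.054 for the pericyte genes and -0.18 for the smooth muscle genes, against 0.014 for all tested probes. Without control 8.5 the median of the smooth muscle genes was 0.0067.

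**Figure D1:**
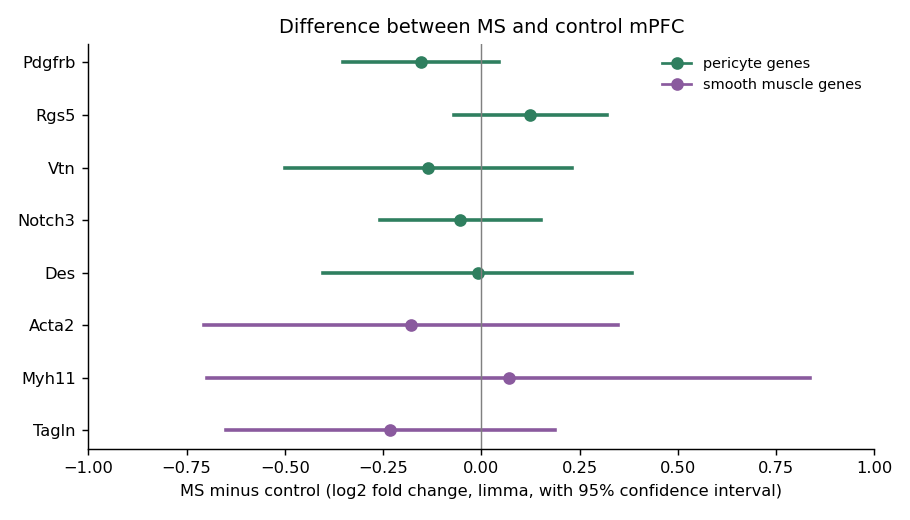
Log2 fold change of MS minus control for the 8 genes (points) with its 95% confidence interval (lines), from limma with 4 MS and 4 control animals. All intervals include 0, and the smooth muscle genes have the wider ones, with Myh11 between -0.70 and 0.84.

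Among the receptors, Pdgfrb, the PDGF receptor of mural cells, had levels of -0.20, -0.22, -0.30 and -0.11 in MS 5.3, 7.1, 7.2 and 7.6, against 0.09, -0.03, -0.08 and -0.21 in control 6.2, 8.2, 8.4 and 8.5. All controls but control 8.5 lay above all MS mice. The log2 fold change was -0.15 ± 0.087 (SE, as for all fold changes), a ratio of MS to control of 0.90 with a 95% confidence interval of 0.78 to 1.03. Its limma p of 0.12 was the smallest of the 8 genes and was not adjusted, and its exact permutation p was 0.086. In both slide rows, each with 2 arrays of each group, the fold change was -0.15. It was -0.20 without control 8.5 (a limma p of 0.049, adjusted 0.95) and -0.27 without the 3 animals with raised olfactory bulb markers (a limma p of 0.036, adjusted 0.99996). Notch3, the Notch receptor of mural cells, was at 0.44, 0.38, 0.22 and 0.12 in the same MS mice, against 0.40, 0.26, 0.38 and 0.35 in the controls. The MS mice enclosed all controls. Its log2 fold change was -0.054 ± 0.090 and became 0.0023 without MS 7.6 and -0.10 without MS 5.3. Over the 8 animals Notch3 and Pdgfrb were among the steadier genes, since the highest and lowest animals differed 1.24-fold in Notch3 and 1.31-fold in Pdgfrb.

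Rgs5, which encodes a brake on G protein signalling and is abundant in pericytes, was nearly level in MS mice, at 1.070, 1.050, 1.030 and 1.102, against 1.081, 1.027, 0.858 and 0.788 in controls. Control 8.4 and control 8.5 were the low animals, control 6.2 lay among the MS mice and control 8.2 just below them. The log2 fold change was 0.12 ± 0.086, a ratio of 1.09 with an interval of 0.95 to 1.25. These low controls are among the 3 animals with raised olfactory bulb markers. MS 7.6, also among them, had the highest Rgs5 level of all mice. The fold change of Rgs5 was 0.098 without control 8.4, 0.075 without control 8.5 and -0.0039 without those 3 animals. Whether these markers had a part in it was not tested.

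Vtn, which encodes vitronectin, a matrix protein made by brain pericytes, was at 2.35, 2.90, 2.51 and 2.95 in MS 5.3, 7.1, 7.2 and 7.6, against 2.70, 2.85, 3.08 and 2.62 in control 6.2, 8.2, 8.4 and 8.5. MS 5.3 and MS 7.2 were the lowest of all animals and control 8.4 the highest. MS mice averaged 2.67 ± 0.29 and controls 2.81 ± 0.20 (SD, n = 4 each), with a log2 fold change of -0.14 ± 0.16. It was -0.026 without MS 5.3, -0.046 without control 8.4 and -0.23 without MS 7.6. Des, which encodes the intermediate filament desmin of mural and muscle cells, was dim, at -5.15, -4.71, -5.15 and -4.99 in MS mice, against -4.71, -5.09, -5.41 and -4.73 in controls. Controls spanned 0.70 log2 units and MS mice 0.44, with overlap, and its log2 fold change of -0.0096 ± 0.17 changed sign under several processing alternatives.

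The smooth muscle genes had SDs over the 8 animals of 0.30 to 0.52, against 0.11 to 0.26 for the pericyte genes. Acta2, which encodes smooth muscle actin, was at -0.10, 0.45, -0.44 and 0.21 in MS mice, against -0.03, -0.0048, 0.11 and 0.77 in controls. Control 8.5 and MS 7.1 were the highest animals and MS 7.2 the lowest. Its log2 fold change was -0.18 ± 0.23, with 0.0067 without control 8.5, -0.022 without MS 7.2 and -0.32 without MS 7.1. Tagln, which encodes the actin-binding protein SM22, was at 0.76, 1.36, 0.47 and 1.12 in MS mice, against 1.13, 1.12, 1.01 and 1.38 in controls. The 4 controls lay inside the spread of the MS mice except control 8.5, which was slightly above MS 7.1. MS mice averaged 0.93 ± 0.39 and controls 1.16 ± 0.16, with a log2 fold change of -0.23 ± 0.18. Without MS 7.2 it was -0.081, and without MS 7.1 it was -0.37 (a limma p of 0.051 before adjustment).

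Myh11, the heavy chain of smooth muscle myosin, was dim, at -4.18, -2.84, -4.16 and -4.18 in MS mice, against -4.12, -4.21, -4.05 and -3.25 in controls. MS 7.1 and control 8.5, 1 animal of each group, stood clearly above the other 6, which lay between -4.21 and -4.05. The highest and lowest animals differed 2.58-fold, the widest difference among the 8 genes, and 96.2% of tested probes had a smaller or equal SD over the animals. The log2 fold change was 0.069 ± 0.34, and its interval, as a ratio of 0.62 to 1.79, allows a change of either sign. Without MS 7.1 the fold change was -0.26, and without control 8.5 it was 0.29. Myh11 was read by 1 spot per array, so its spread between spots could not be measured.

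**Figure D2:**
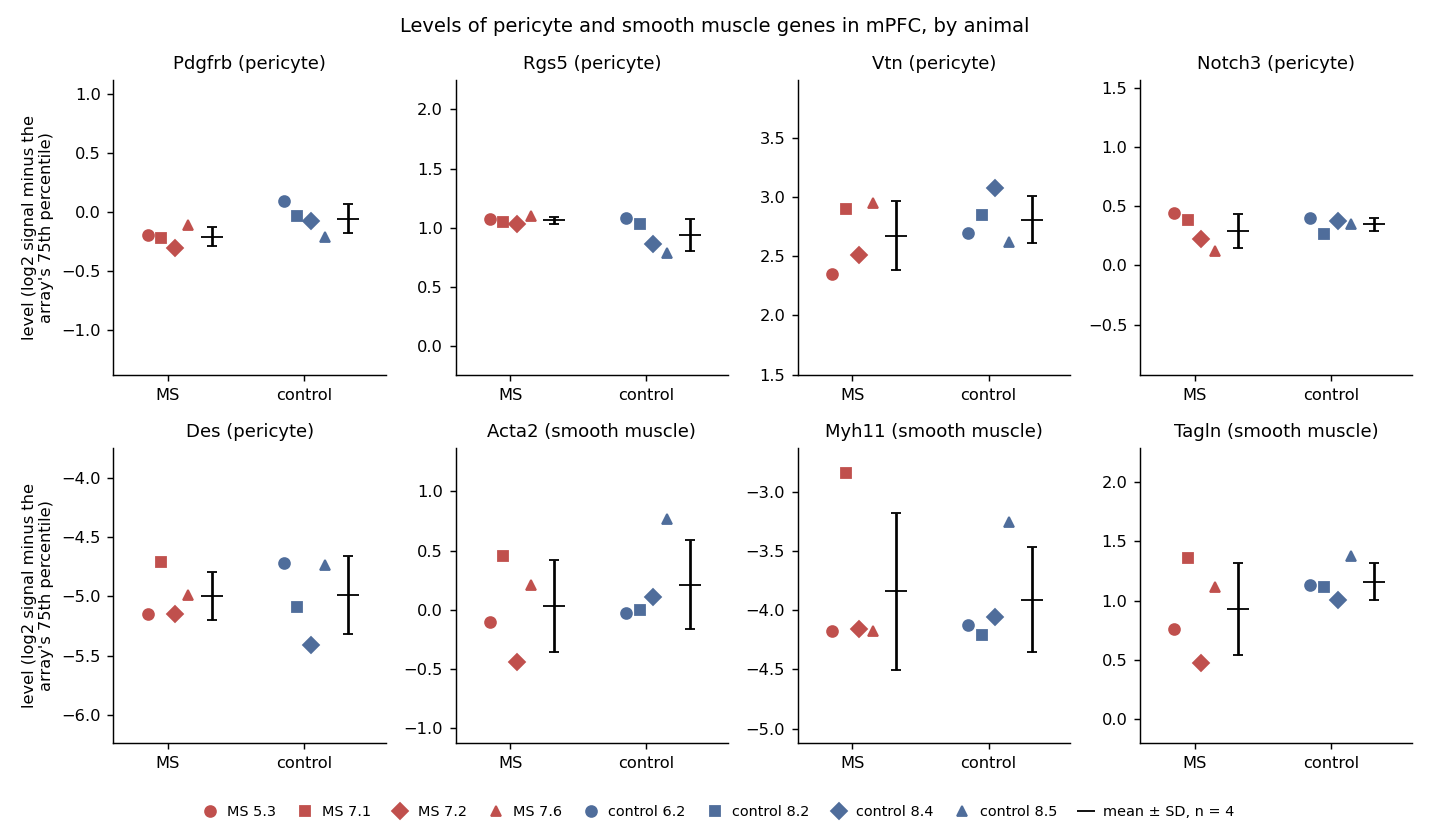
Level of each gene in each of the 4 MS and 4 control animals (symbols), with the mean and SD of each group beside them (bars). Every vertical axis spans 2.5 log2 units, so that spreads can be compared, and in Myh11 MS 7.1 at -2.84 and control 8.5 at -3.25 stand above the other 6 animals.

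The probes of Vtn, Des and Acta2 were printed 10 times on each array, which gave the spread between spots within an array. Error from dissection, labelling and hybridisation was not measured, since each animal had 1 array. The SD between the spots of 1 array was 0.040 to 0.051 for Vtn and 0.083 to 0.12 for Acta2, against an SD over the 8 animals of 0.24 for Vtn and 0.37 for Acta2. The differences between animals in these 2 genes were thus larger than the spread between spots. For Des the SD between spots was 0.12 to 0.42, against 0.26 over the animals. The level of an animal is a mean of spots. The SE of this mean was at most 0.018 for Vtn, 0.038 for Acta2 and 0.13 for Des. In control 8.4, where Des was lowest, 7 of its 10 spots were well above background.

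**Figure D3:**
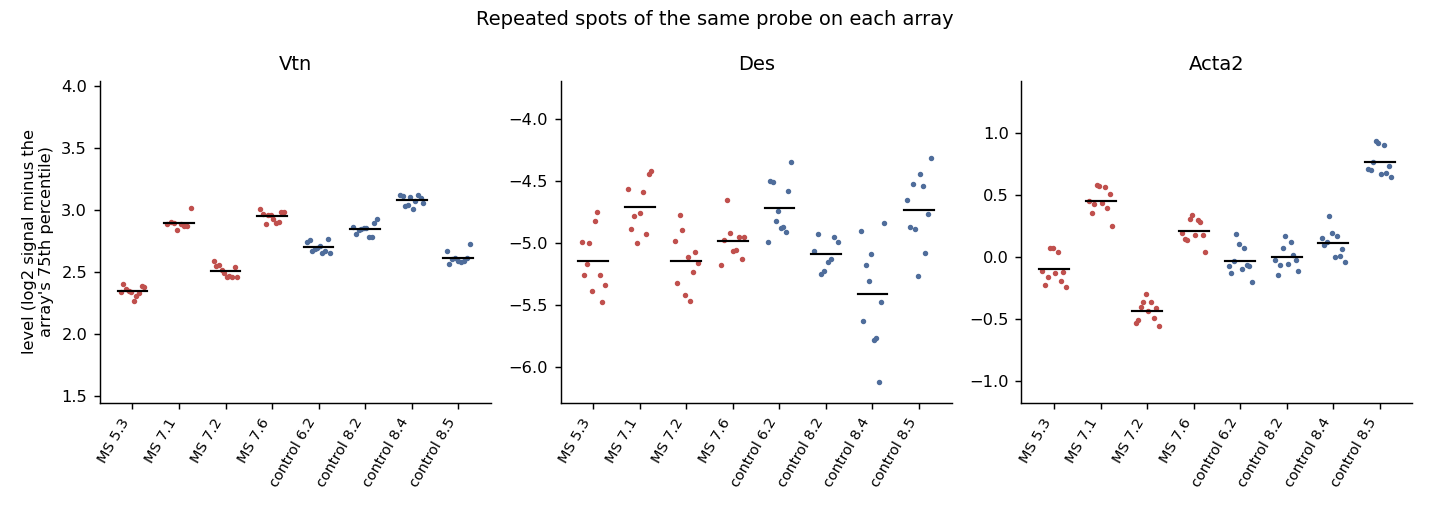
Levels of the single spots of the Vtn, Des and Acta2 probes in each animal (points, outlier spots left out), with their mean (lines). The spots of Vtn and Acta2 are tightly grouped around each animal's mean, and those of Des in control 8.4 run between -6.12 and -4.84.

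MS 7.1 and control 8.5 were the 2 highest animals in each of the 3 smooth muscle genes. The mean centred level of these genes was 0.56 in MS 7.1, -0.047 in MS 7.6, -0.27 in MS 5.3 and -0.47 in MS 7.2, against 0.53 in control 8.5, -0.076 in control 8.4, -0.10 in control 6.2 and -0.13 in control 8.2. The 2 high animals thus came from both groups, and so did the other 6. Over all 8 animals this level spanned 2.04-fold, against 1.19-fold for the pericyte genes. The span of such a mean shrinks where its genes do not move together, and Vtn had r = -0.12 with Des and -0.27 with Notch3. Singly, the pericyte genes spanned 1.24-fold (Notch3) to 1.66-fold (Vtn) and the smooth muscle genes 1.87-fold (Tagln) to 2.58-fold (Myh11). Acta2 and Tagln correlated with Pearson r = 0.89 and Spearman rho = 0.79 (exact permutation p = 0.0042 and 0.028, adjusted over 28 pairs 0.12 and 0.39), so that the relation did not pass the adjustment. Without MS 7.2 and control 8.5, the animals farthest from the median of Acta2, r was 0.78, and it was 0.89 for deviations from the group means and 0.87 for deviations from the means of the slide rows. With 4 arrays per row no r within a row is given. Of the 28 pairs of the 8 genes, 0 passed an adjusted p of 0.05. Animals fell into 2 separate sets in Myh11 and in Rgs5, with a gap above 50% of the range, and no r is given for pairs with these genes.

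Outside the 8 genes, Cnn1, which encodes calponin, an actin-binding protein of smooth muscle, had the second-closest pattern to the smooth muscle genes among 14572 named genes (Pearson r = 0.95 over 8 animals). It was at -2.55, -1.51, -2.68 and -2.31 in MS mice, against -2.60, -2.57, -2.17 and -1.32 in controls. MS 7.1 and control 8.5 were again the highest. The list of other contractile genes to which Cnn1 belongs (16 tested) did not set these animals apart. Its mean centred level was 0.13 in MS 7.1, 0.12 in control 8.4, 0.11 in control 8.5 and 0.044 in control 8.2. Within that list Mylk, Tpm1, Aoc3, Itga8 and Casq2 were below their means in MS 7.1. The rest of its tested genes were above their means there, among them Mustn1 (by 0.60), Mrvi1 (0.41) and Tpm2 (0.38). The other 4 genes closest in pattern were Med13 (r = 0.97), Ttc4 (0.94), Bcan (0.93) and Slc39a9 (0.92). Closest to the mean centred level of the pericyte genes were Ccl12 (0.95), Rhoa (0.93), Bicc1 (0.92), Ifi47 (0.92) and Parp10 (0.92). These r values describe the best of many candidates and carry no test, and in the smooth muscle genes 2 animals stood apart from the other 6.

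**Figure D4:**
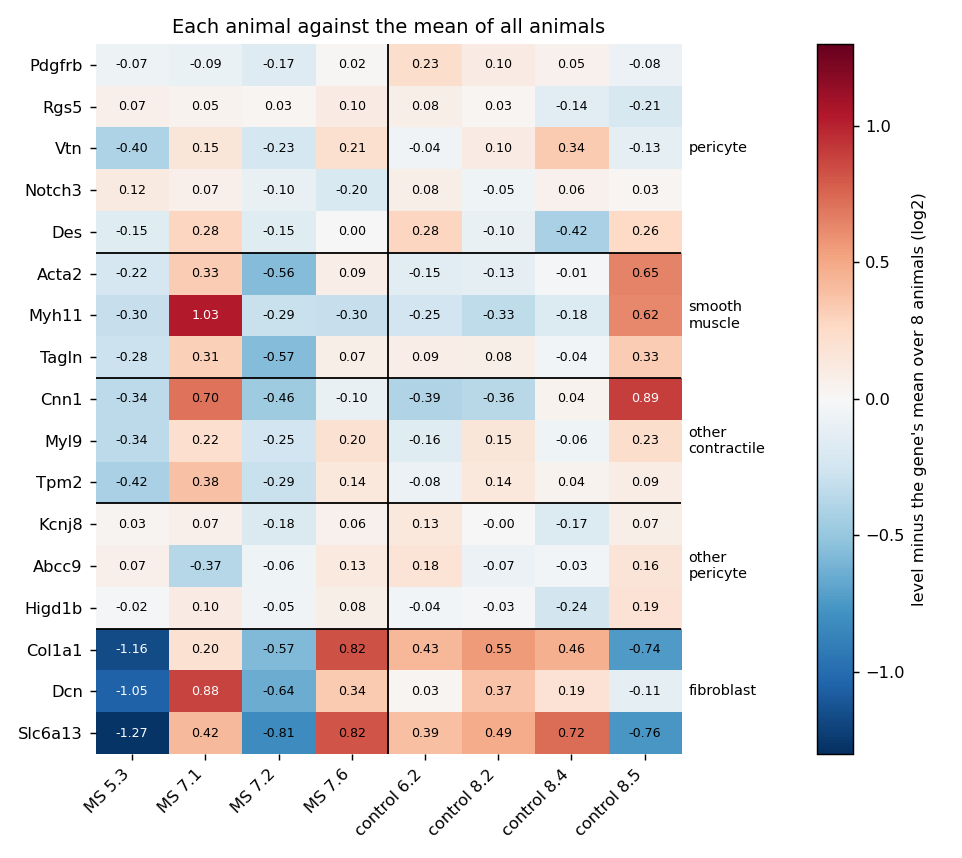
Level of each gene in each animal minus the gene's mean over the 8 animals (log2, colour and printed value), with MS animals left of the line and controls right of it, and with example genes of 3 further lists below the 8 genes. Acta2, Myh11, Tagln and Cnn1 are raised in MS 7.1 and control 8.5, while Vtn and the fibroblast genes are below their means in MS 5.3, MS 7.2 and control 8.5.

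The animals had another order in Vtn than in the smooth muscle genes. Its 3 lowest animals, MS 5.3, MS 7.2 and control 8.5, were also the 3 lowest for 15 markers of meningeal and perivascular fibroblasts, the cells that form the collagen-rich coverings of the brain and of large vessels. The mean centred level of these markers was -1.23 in MS 5.3, 0.57 in MS 7.1, -0.55 in MS 7.2 and 0.70 in MS 7.6, against 0.29 in control 6.2, 0.52 in control 8.2, 0.50 in control 8.4 and -0.79 in control 8.5. Vtn correlated with it at Pearson r = 0.91 and Spearman rho = 0.83 (exact permutation p = 0.0013 and 0.015, adjusted over 24 relations 0.016 and 0.17). These relations set the 6 genes without separate sets of animals against 4 gene lists, and the endothelial list was left out because its level fell into 2 sets. The relation passed the adjustment by r and not by rho, and it was computed after the values had been seen. Leaving out 1 animal at a time gave r between 0.84 and 0.95, leaving out MS 5.3 and control 8.4 gave 0.91, and deviations from the group means and from the slide row means gave 0.91 and 0.89. A gap of 0.84 separated the 3 low animals from the other 5 in the fibroblast level.

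All 15 fibroblast markers had fold changes below 0 (against 45.1% of all tested probes), with a median of -0.24, and 0 of the 15 passed an unadjusted p of 0.05. The signs depended on single animals. Without MS 5.3 only Col1a1, Col3a1, Slc6a13, Igf2 and Igfbp2 stayed below 0, and the other markers lay between 0.073 (Dcn) and 0.49 (Ogn). Without control 8.5 the markers lay between -1.02 (Ogn) and -0.21 (Lama1). Their summed signal, relative to the 75th percentile, was 12.1 to 42.2 in MS mice, against 15.9 to 37.1 in controls, so that the groups overlapped. All 15 markers were well above background in all 8 animals. Acta2 had r = 0.11 with the fibroblast level and Tagln had r = 0.43 (adjusted exact permutation p above 0.05 for both by r and rho). Control 8.5 was low for the fibroblast markers and high for the smooth muscle genes, whereas MS 7.1 was high for both. The part of fibroblast RNA in the level of Vtn was not tested.

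**Figure D5:**
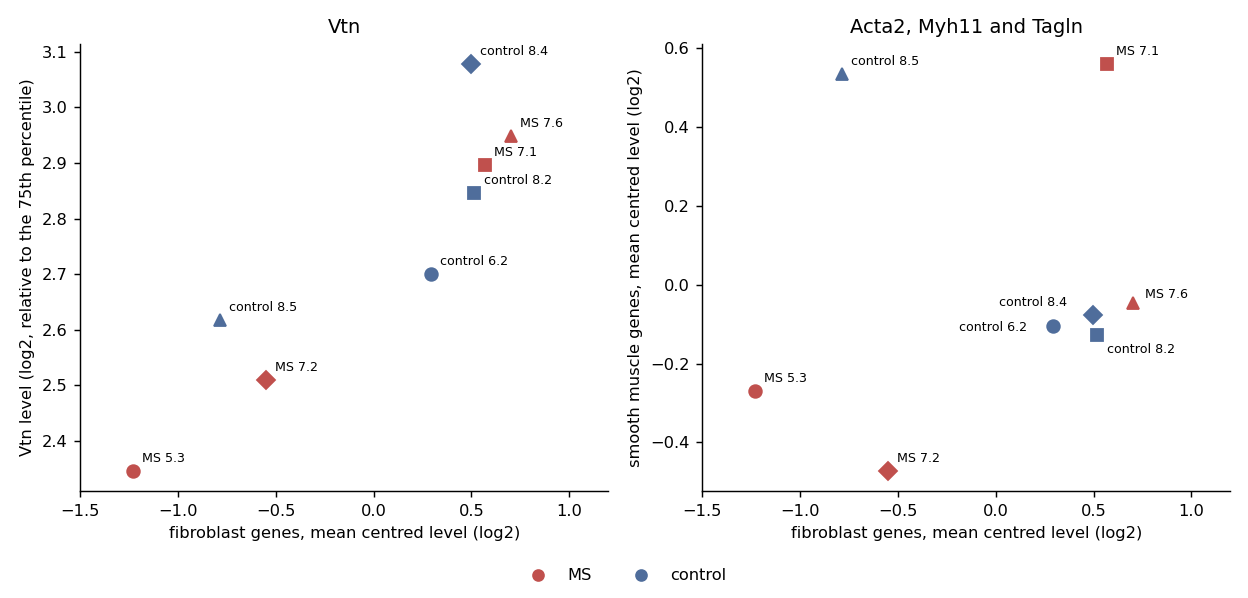
Mean centred level of 15 fibroblast markers (horizontal, log2) against the level of Vtn (left) and the mean centred level of Acta2, Myh11 and Tagln (right), 1 symbol per animal. Vtn is lowest in the 3 animals with low fibroblast markers, while the smooth muscle genes are high in MS 7.1 and control 8.5, which lie on opposite sides of 0 on the horizontal axis.

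The wider pericyte list held 18 further genes, of which 17 were tested. By limma, 0 of them passed an unadjusted p of 0.05, 7 had fold changes above 0 and 10 below, and their median was -0.014. Kcnj8, a subunit of the pericyte potassium channel, was at -3.68 ± 0.12 in MS mice and -3.66 ± 0.13 in controls. P2ry14, a receptor for nucleotide sugars, had the smallest p of the list, with a log2 fold change of 0.21 ± 0.11. Art3 had a fold change of 0.16, while its dimmer probe gave -0.040. Zic1 had a fold change of -0.58 (-0.17 by its dimmer probe) and Ifitm1 of -0.20 (-0.24 by its dimmer probe). Without control 8.4, the animal with raised olfactory bulb and striatal markers, Zic1 was at -0.18 and Ifitm1 at -0.047, and the part of these markers was not tested. The list was not uniform between animals. Its 6 most variable genes (Anpep, Ifitm1, Slc6a20a, Tbx18, Zic1 and Cd248) differed by 1.03 to 2.55 log2 units between the highest and lowest animal and had r of 0.51 to 0.96 with Vtn, while the other 11 differed by 0.29 to 0.67 and had r of -0.45 to 0.59, with a median of 0.037. The same 6 genes had r of 0.67 to 0.99 with the fibroblast level, against -0.41 to 0.72 for the other 11. Kcnj8 had r = -0.11 with Vtn and Higd1b r = -0.24. This division was made after the values were seen and was not tested. Over the whole list Vtn had r = 0.93 and rho = 0.93 (exact permutation p = 0.0005 and 0.0022, adjusted over the 24 relations 0.012 and 0.054). The fibroblast markers moved with the most variable genes of this list, and their part in its relation with Vtn was not tested.

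Among 19 other contractile genes of smooth muscle, 16 were tested, 4 with fold changes above 0 and 12 below, with a median of -0.098. The gene Pln passed an unadjusted p of 0.05 and was lower in MS mice, as 1 of 16 genes against 1.2% of all probes called in that direction. Pln encodes phospholamban, which restrains calcium uptake into the sarcoplasmic reticulum. It was dim, at -5.76, -5.25, -5.51 and -5.93 in MS mice, against -5.73, -4.62, -4.74 and -4.92 in controls. The groups overlapped through control 6.2, and the adjusted limma p was 0.99956. Mylk, the kinase that starts contraction, had a fold change of -0.14, Ppp1r12b, a subunit of the opposing phosphatase, one of 0.23 and Mustn1 one of 0.071. The value of Ppp1r12b was 0.059 without control 8.4, and its other probes gave 0.18 and -0.079. The dimmer probe of Mylk gave -0.088.

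For the genes of the PDGF and Notch routes no difference passed the test either. Of 5 further PDGF genes, the ligands and the second receptor, 0 passed an unadjusted p of 0.05. Pdgfb, the endothelial ligand of the Pdgfrb receptor, was at 1.87 ± 0.12 in MS mice and 1.87 ± 0.18 in controls, while its dimmer probe had a fold change of 0.39 (a limma p of 0.090 before adjustment). The fold change was 0.11 for Pdgfa (0.0048 by its dimmer probe), -0.14 for Pdgfd and -0.023 for Pdgfra. That of Pdgfa was 0.020 without control 8.4, and that of Pdgfd was 0.079 without MS 7.2. Of 16 further Notch genes 0 passed, with 6 above 0 and 10 below. Hes1, a target gene of Notch, had the largest value above 0 among them, with -2.47 ± 0.29 in MS mice and -2.78 ± 0.08 in controls and a limma p of 0.062 before adjustment. Its fold change of 0.30 was 0.17 without MS 7.1. Rbpj, which encodes the DNA-binding partner of Notch receptors, had a fold change of 0.18, the coactivator gene Maml2 one of -0.21 and the mural target gene Heyl one of -0.51. The dimmer probe of Rbpj gave 0.068. Heyl was at -3.75 to -3.39 in MS mice, against -1.93 in control 8.4 and -3.80 to -3.06 in the other 3 controls. Without control 8.4, whose olfactory bulb and striatal markers were raised, its fold change was -0.14 and that of Maml2 was -0.080, and the part of these markers was not tested. Of 13 tested regulators of contractile genes (of 14, since the coactivator gene Myocd was too dim) 0 passed by the brightest probe. Mkl2, which encodes a partner of SRF, was the 1 regulator whose groups did not overlap (1 of 13, against 0.853% of all probes in that direction), with levels of 5.18 to 5.27 in MS mice, against 4.91 to 5.18 in controls, and a fold change of 0.16 ± 0.080. The closest animals were MS 7.6 at 5.182 and control 8.2 at 5.180, and the fold change was 0.11 without control 8.4. The other tested probes of Mkl2 gave 0.24 and -0.089. The fold change was 0.18 for Smad3 (0.15 by its dimmer probe), -0.057 for Tgfb2 (-0.23 by its dimmer probe) and -0.079 for Tgfbr1. The dimmer probes of Tgfbr1 gave 0.22 and 0.54, and the probe at 0.54 passed an unadjusted p of 0.05, with a limma p of 0.035.

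Endothelial cells line the vessels that mural cells cover. All 15 of their markers were tested, 8 had fold changes above 0 and 7 below, with a median of 0.027, and 0 passed an unadjusted p of 0.05. Their summed signal was 65.0 to 77.7 in MS mice, against 65.9 to 74.4 in controls. The fold change was 0.16 for Slco1c1 (0.018 by its dimmer probe), 0.095 for Pecam1, -0.23 for Emcn and -0.17 for Tie1. Among 7 markers of arterial endothelium, the vessels that smooth muscle surrounds, 4 were above 0 and 3 below, with a median of 0.024. Bmx had a fold change of 0.10, Gja5 of 0.044, Efnb2 of -0.11 (-0.020 by its dimmer probe) and Gkn3 of -0.098. The summed signal of 6 tested blood genes was 275 to 445 in MS mice, against 273 to 456 in controls, and that of 5 tested skeletal muscle genes was 1.63 to 1.78 in MS mice, against 1.30 to 1.87 in controls.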

How the data were processed

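Total RNA (200 ng) of each mPFC was labelled with Cy3 and hybridised to Agilent mouse arrays, all 8 on 1 slide. The headers give design 28005 with mm9 coordinates, whereas the methods of the study name another design number. The deposited spot intensity values were extracted by the authors with Agilent Feature Extraction 10.10.1.1, background-subtracted and not normalised between arrays. The log2 table that the authors deposited (34137 probes, column medians of 8.532 to 8.533) served as an alternative, and the sources used here do not say how its probes were chosen. Its columns correlated at least 0.999895 with the log2 median signal of the same arrays. Their medians are nearly equal, so the arrays share a common centre, and the table is not centred per gene.

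Control spots (3671) and spots flagged as outliers (0.25% to 0.30%) were left out, spots of a probe were averaged on the log2 scale, and the 75th percentile of the array was subtracted. Tests were run on probes whose signal was well above background (in more than 50% of the spots) in all 4 animals of a group. This kept 34095 probes. MS was compared with control by limma 3.58.1 (lmFit, eBayes) in R 4.3.3 with Benjamini-Hochberg adjustment, as in the methods of the study, and no covariate was used here. The SE and interval of a fold change come from this fit. The fit was tested on simulated data. Single values and correlations were tested by exact two-sided permutation (70 labellings or 40320 pairings) in Python 3.11.15 with numpy 2.4.6 and pandas 2.3.3, and figures were drawn with matplotlib 3.10.9. Further genes are represented by their brightest tested probe. From each further list that is described, the genes with the 2 smallest p in each direction are named, and for each gene group the 5 non-member genes, with a symbol in the RefSeq table of assembly GRCm38.p6, of highest r. The members and the lists were chosen with earlier results of these data known, and genes named as examples beyond this rule (Kcnj8, Higd1b and those of the heat map) were picked with their values in view.

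The number before the point in a label is shared by 3 MS mice and by 3 controls, and the labels do not say what it means. Should it be a litter number, the animals are not all independent.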

Additional observations from a re-analysis of the deposited data

Results flagged for a closer look

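Of 20 sets of 4 animals checked for a sample far from the others (each of the 8 genes and both gene groups, in MS and in control mice), 3 were marked, and chance marks about 1 in 20. MS 7.1 was marked for Myh11, at -2.84 against -4.16 for the next MS mouse. Control 8.5 was marked for Myh11, at -3.25 against -4.05 for the next control, and also for the mean centred level of the smooth muscle genes, at 0.53 against -0.076 for the next control. This last value contains Myh11, so the marks on control 8.5 are not separate. Acta2 and Cnn1 were also highest in these 2 animals, whereas the list of other contractile genes as a whole did not set them apart. In MS 7.1 the blood markers were at 0.31 and in control 8.5 at 0.21 (mean centred level), and MS 7.2, with the lowest smooth muscle level, had 0.30. The cause was not tested.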

How the results depend on the processing

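Of the 19 alternatives, 18 were planned and 1 was added after seeing the data, the omission of MS 7.6, control 8.4 and control 8.5. Under all 19, 0 probes and 0 of the 8 genes passed an adjusted p of 0.05 by limma, with 425 to 3836 probes at an unadjusted p under 0.05. The highest number came with the label number as a random block, for which the estimated correlation was -0.22 and the smallest adjusted p 0.39. The medians ran from -0.11 to -0.012 for the pericyte genes and from -0.32 to 0.0067 for the smooth muscle genes. Pdgfrb, Vtn and Tagln had fold changes below 0 under every alternative, though leaving out 1 animal moved Vtn between -0.23 and -0.026 and Tagln between -0.37 and -0.081. Des, at -0.0096 in the comparison reported, was 0.069 with normexp background correction, 0.031 with quantile normalization, 0.012 with the median in place of the 75th percentile, 0.024 with outlier spots kept and 0.044 with the label number as a random block. Leaving out the 3 animals gave -0.27 for Pdgfrb (a limma p of 0.036 before adjustment), -0.0039 for Rgs5, -0.19 for Vtn, 0.018 for Notch3, -0.099 for Des, -0.010 for Acta2, 0.44 for Myh11 and -0.26 for Tagln. Leaving out 1 animal at a time gave -0.15 to 0.081 for Des (0.040 without MS 5.3 and without MS 7.2, 0.074 without control 8.5), -0.26 to 0.29 for Myh11 (-0.0021 without control 6.2, -0.030 without control 8.2), -0.32 to 0.0067 for Acta2 and -0.10 to 0.0023 for Notch3, while Rgs5 stayed above 0. The cause of these changes of sign was not tested. Across the 5 other scalings and background settings r was 0.86 to 0.89 for Acta2 with Tagln and 0.89 to 0.91 for Vtn with the fibroblast markers. The adjusted exact permutation p of the latter by r stayed under 0.05. These settings use the same 8 animals, and that relation was computed after the values had been seen and did not pass by rho. Each of the 8 genes has 1 probe, so averaging the probes of a gene changed nothing for them. No paired analysis was possible because the groups share no animal number. With 4 animals per group the intervals of Acta2 and Myh11 leave differences of up to 1.27-fold and 1.79-fold upward and to 0.61 and 0.62 of control downward.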
